A study of Mus musculus with 8 samples.

Results

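Greb1, Pgr, Tff1, Rasd1, Tacc1, Susd3, Ramp3, Ctsd and Myc are genes whose transcripts are known to follow 17β-estradiol (E2) in hormone-responsive cells, and they are described here in cultured ovarian follicular cells. The 9 genes were chosen by name as classical estrogen response genes, and their mouse Entrez identifiers were looked up in the row names of the deposited expression values. All 9 were found among 24235 genes with an identifier on the array. Of all genes, 15638 had a median scaled signal of at least 10 over the arrays and were tested, 8 of the 9 members among them. Primary cells of preantral follicles, mostly granulosa cells, were grown from 8-week-old female Swiss mice, with 5 mice pooled per replicate, for 9 days in all. Every culture received 12 pmol of a pool of siRNAs and a DsRed reporter plasmid. It was kept in phenol red-free medium with charcoal-stripped serum and no androstenedione, and was exposed to E2 or vehicle for the last 10 h. For the E2 experiment the study describes 24 h of siRNA before E2, while its general transfection protocol gives 24 h before lysis. A non-targeting control siRNA or an siRNA pool against FOXL2, the forkhead factor that granulosa cells need, was combined with vehicle or with 100 nM E2, which made 4 groups of 2 arrays. The question behind the design was how E2 changes gene expression in these cells and whether depletion of FOXL2 alters that response. The members were chosen with earlier results of these data known. The study names Tacc1 as an E2 target from this experiment, and lists Rasd1 among FOXL2 targets from its other arrays. Counts of members beside shares of all genes are therefore descriptions, not independent tests.

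E2 acts mainly through the nuclear receptors ERα and ERβ, encoded by Esr1 and Esr2, and granulosa cells are known for ERβ. The liganded receptor binds estrogen response elements, palindromes with the letters GGTCA and TGACC around a spacer, or joins other transcription factors on DNA. Among the genes described here, Greb1 encodes a coregulator of the estrogen receptor, Pgr the progesterone receptor, Rasd1 a small Ras-like G protein first found as dexamethasone-induced, Ramp3 an accessory protein of receptors for calcitonin-family peptides, and Tacc1 a coiled-coil protein linked to microtubules. Susd3 encodes a membrane protein with a sushi domain, Tff1 a secreted trefoil peptide, Ctsd the lysosomal protease cathepsin D, and Myc a transcription factor that drives growth. Most of what is known of them as estrogen targets comes from breast cancer cells, not from the ovary.

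Values are given as scaled signals, that is the processed spot intensity brought to the same 75th percentile of 320 on every array. Levels were not set against each other between genes, since each probe has its own brightness. Replicates of a group correlated at 0.989 to 0.992 across genes, and their median difference was 0.15 to 0.20 on the log2 scale. The level of Foxl2 itself was on average not lower on the arrays labelled FOXL2 siRNA. It was higher there by 0.17 with vehicle and by 0.19 with E2 (log2, limma adjusted p = 0.622 and 0.607). With E2 the arrays of the 2 siRNAs did not overlap, as for 48% of all genes. The groups are therefore named as labelled, and every direction on these arrays rests on the labels. The study reports from qPCR that its siRNA pools lowered their target mRNAs in such cells. Of 7 granulosa markers 5 were detected, while Fshr and Amh were well above background on 0 of 8 arrays. On the log2 scale Esr2 stood at 11.78 ± 0.18 (SD, n = 2) in control siRNA cells given vehicle and at 11.71 ± 0.01 in those given E2, and in FOXL2 siRNA cells at 11.32 ± 0.07 and 11.24 ± 0.23. Its change with FOXL2 siRNA was -0.46 with either treatment and was not called (limma adjusted p = 0.0897 and 0.110). Here and below, called means an adjusted p under 0.05 over all 15638 genes.

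The stretches just upstream of the start sites were read for estrogen response elements in the RefSeq promoter table (build GRCm38.p6). The table held 5 of the 9 members with 6 start sites, and Rasd1, Tacc1, Tff1 and Myc were not in it. Those of Greb1, which differed most between groups among the 5, of Susd3, which followed the siRNA, and of Ctsd, which was nearly flat, are shown. Each stretch covers 250 bases before the start, and capitals mark a single arm of the element, GGTCA or its reverse complement TGACC. Greb1 has 2 start sites, chr12:16757240-16757489 and chr12:16800887-16801136, Susd3 has chr13:49248295-49248544 and Ctsd has chr7:142387828-142388077, all on the minus strand and written 5′ to 3′ towards the gene.
Greb1, site 1: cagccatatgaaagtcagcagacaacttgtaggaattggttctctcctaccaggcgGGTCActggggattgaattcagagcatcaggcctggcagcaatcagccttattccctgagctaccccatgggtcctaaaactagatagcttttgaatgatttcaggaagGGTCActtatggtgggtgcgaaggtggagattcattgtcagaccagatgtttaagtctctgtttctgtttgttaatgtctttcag
Greb1, site 2: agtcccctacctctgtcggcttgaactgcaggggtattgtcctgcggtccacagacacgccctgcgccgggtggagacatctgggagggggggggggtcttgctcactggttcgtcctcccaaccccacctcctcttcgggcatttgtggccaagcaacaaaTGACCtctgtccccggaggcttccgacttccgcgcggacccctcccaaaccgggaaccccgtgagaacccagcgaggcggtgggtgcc
Susd3: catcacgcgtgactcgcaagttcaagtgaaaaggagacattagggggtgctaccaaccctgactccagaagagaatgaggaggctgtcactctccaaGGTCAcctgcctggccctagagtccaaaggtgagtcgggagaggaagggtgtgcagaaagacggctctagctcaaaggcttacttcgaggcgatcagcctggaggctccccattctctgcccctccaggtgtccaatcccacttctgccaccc
Ctsd: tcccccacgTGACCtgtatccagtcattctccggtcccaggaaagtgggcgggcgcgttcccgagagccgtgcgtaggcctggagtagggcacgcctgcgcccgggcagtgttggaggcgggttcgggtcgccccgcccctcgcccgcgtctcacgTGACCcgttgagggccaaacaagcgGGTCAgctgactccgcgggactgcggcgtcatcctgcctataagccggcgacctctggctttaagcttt
The whole element, GGTCANNNTGACC, was in none of the 6 stretches and in 21 of all 32851 promoters of this length (0.0639%). Single arms lay 194 and 85 bases upstream of Greb1 site 1, 88 bases upstream of site 2, 153 bases upstream of Susd3, and 241, 94 and 69 bases upstream of Ctsd. Those of Pgr (chr9:8899583-8899832) and Ramp3 (chr11:6658283-6658532), both on the plus strand, held 0. One arm or more was found in 35.2% of all promoters, at least 2 in 8.16% and at least 3 in 1.51%, counted on both strands and including arms that are part of a whole element. The stretch with most arms, that of Ctsd, belonged to a gene with nearly the same signal in all 4 groups, as given below.

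With control siRNA, 3 members differed by 1 log2 unit or more between E2 and vehicle, and all 3 were lower on the arrays labelled E2. These were Greb1, Rasd1 and Tacc1. The study describes Tacc1 as activated by E2 in control cells, which is the opposite direction to the arrays as labelled. By the target rule of the study, given below, 9 genes were higher and 62 lower with E2 on the control siRNA arrays, and 25 higher and 9 lower on the FOXL2 siRNA arrays. In control cells the study reports nearly only activated genes, so the opposite direction is not limited to Tacc1. The reason was not tested. Greb1 had scaled signals of 27280 and 24795 with vehicle and of 13745 and 12271 with E2 in replicates 1 and 2. Both E2 arrays lay well below both vehicle arrays. The difference was -1.00 on the log2 scale (SE 0.26, limma adjusted p = 0.690), with -0.99 for replicate number 1 and -1.01 for number 2. Rasd1 had 166 and 125 with vehicle and 27.7 and 21.8 with E2, which is 5.86-fold lower with E2. Its log2 difference was -2.55 (SE 0.46, adjusted p = 0.267), with -2.58 and -2.52 for the replicate numbers, and 0.0256% of the genes tested differed by more in either direction. Tacc1 had 951 and 1144 with vehicle and 489 and 538 with E2. Its difference was -1.03 (SE 0.20, adjusted p = 0.347), again without overlap and with similar sizes in both replicate numbers, -0.96 and -1.09.

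On the arrays labelled FOXL2 siRNA the same 3 genes were higher with E2 than with vehicle. Greb1 had 8544 and 4881 with vehicle and 20853 and 14825 with E2. The log2 difference was 1.45 (SE 0.26, limma adjusted p = 0.387), 1.29 for replicate number 1 and 1.60 for number 2, and 0.333% of genes differed by more. Rasd1 was not well above background on either vehicle array, with values of 10.0 and 5.1, and had 78.4 and 35.3 with E2. Against the detection limit of the vehicle arrays it was at least 3.76-fold higher with E2 (adjusted p = 0.246). Here and below, "at least" folds use, for the lower group, the lowest signal called well above background on each array or the gene's own, whichever was higher. Tacc1 had 351 and 269 with vehicle and 541 and 375 with E2. Its difference was 0.55 (SE 0.20, adjusted p = 1.00), with 0.63 and 0.48 for the replicate numbers, and its arrays did not overlap. So the E2 and vehicle arrays of all 3 genes stood apart with either siRNA, while none of the 6 differences passed the adjusted test in the fit of group means, which takes no account of the replicate numbers.

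**Figure D1:**
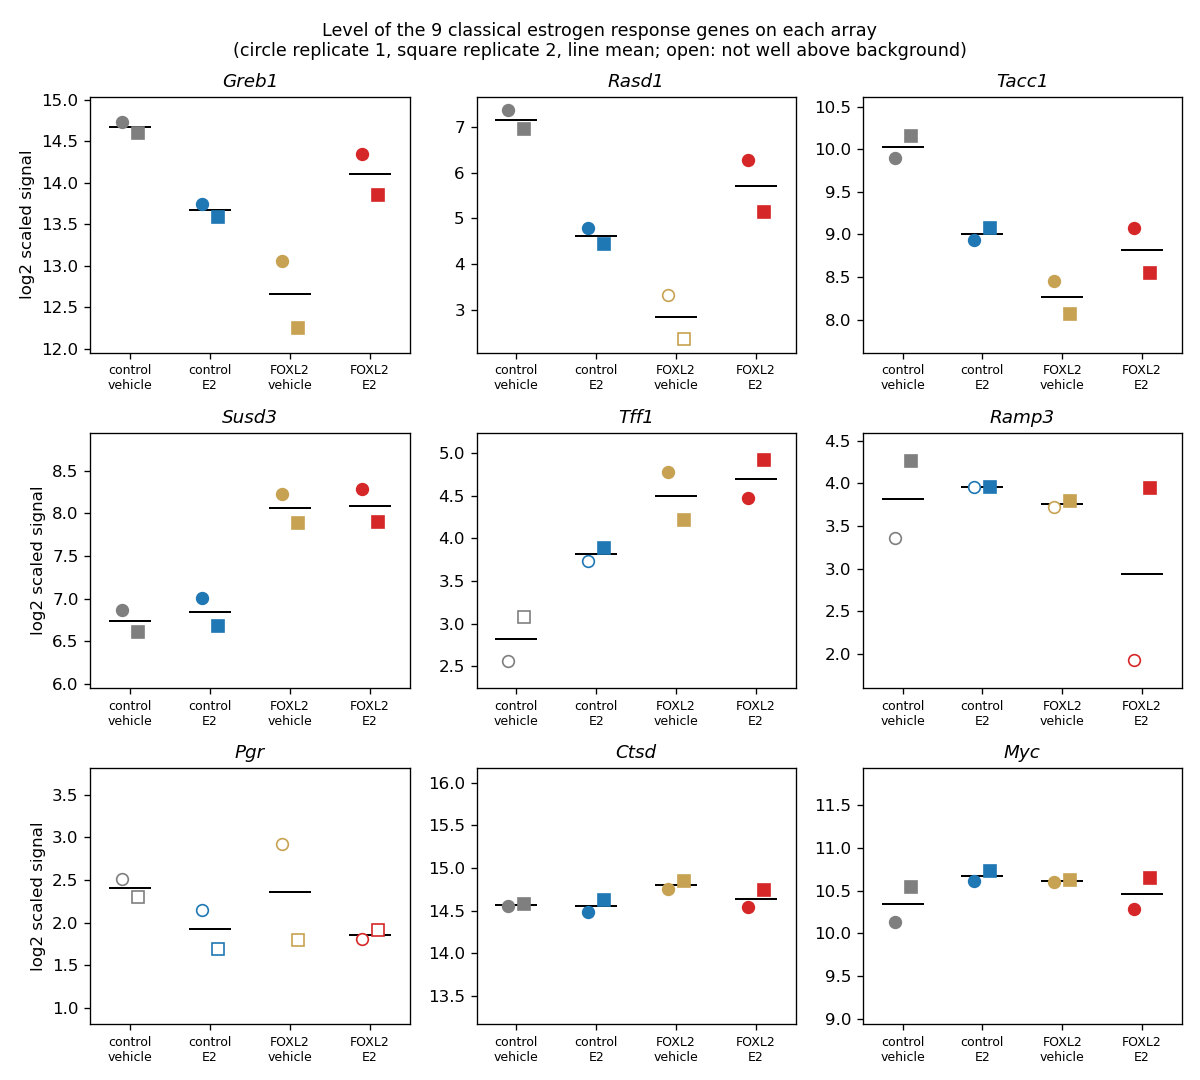
Log2 scaled signal (vertical axis, own range per panel) of the 9 genes on each of the 8 arrays, by group on the horizontal axis. Circles are replicate 1, squares replicate 2, lines the group means, and open symbols arrays not well above background. Greb1, Rasd1 and Tacc1 were highest with control siRNA and vehicle and lowest with FOXL2 siRNA and vehicle, Susd3 separated by siRNA, and Ctsd stayed between 22922 and 29508 scaled units on all arrays.

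Over the members as a group, the E2 effect was not called for any gene with either siRNA in the fit of group means. The background in that fit was low too. With control siRNA 3 of 15638 genes (0.0192%) were called, all lower with E2, and 716 had an unadjusted p under 0.05. With FOXL2 siRNA 2 genes (0.0128%) were called, both higher with E2, and 476 had an unadjusted p under 0.05. With the replicate number as a block, 182 and 96 genes were called with control and FOXL2 siRNA. Greb1, Rasd1 and Tacc1 were among the former and Greb1 and Rasd1 among the latter. The labels do not say that a number marks a shared pool. The median E2 effect of the 8 members tested was 0.05 with control siRNA and 0.12 with FOXL2 siRNA, beside -0.01 and -0.03 over all genes tested. The E2 and vehicle arrays did not overlap for 5 of 8 members with control siRNA, namely Greb1, Tff1, Rasd1, Tacc1 and Myc, where 27.2% of all genes did not overlap. With FOXL2 siRNA this held for 4 of 8, namely Greb1, Rasd1, Tacc1 and Ctsd, where 27.6% of all genes did not. The study counted as an E2 target a gene whose group means differed by at least 1 log2 unit and by more than 2 times the sum of both SDs. Without the study's median subtraction per replicate, 3 members were past it with control siRNA (Greb1, Rasd1 and Tacc1), beside 0.454% of all genes. Greb1 was just at the limit and was replaced by Tff1 in the values the authors deposited. With FOXL2 siRNA 0 members were past it, beside 0.217% of all genes. These counts changed with values centred within replicate numbers. Greb1 and Rasd1 were then past the rule with either siRNA, beside 83 and 65 of 15638 genes, and Tacc1 with neither.

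In the fit of group means, 0.243% of all genes were called for the difference between the E2 effects with the 2 siRNAs. Among the 8 members this was Rasd1 alone. Its fitted value was 5.43 on the log2 scale (limma adjusted p = 0.0333). This value takes the signals of the arrays with FOXL2 siRNA and vehicle as they are, although Rasd1 was not well above background on either. With those arrays held at their detection limit the difference was at least 4.46, and with the normexp background correction, whose offset of 50 draws low signals together, it was 1.77 and not called (adjusted p = 0.0649). The call was kept in 1 of 8 fits that each left out an array, the one without replicate 2 of FOXL2 siRNA with E2. Greb1 differed by 2.45 (SE 0.36, adjusted p = 0.0619) and Tacc1 by 1.58 (SE 0.29, adjusted p = 0.153). The other 5 members tested gave values between -0.97 and -0.07, none of them called. The size of an E2 effect does not depend on which of its 2 groups is named E2, but its sign does, and with it the difference between siRNAs. The sum of both E2 effects, which is 0 where they are equal and opposite, was therefore fitted as well, after the data had been seen. It was 0.44 for Greb1 (95% interval -0.40 to 1.29) and -0.47 for Tacc1 (-1.14 to 0.20). For the sum 0 of 15638 genes were called, and 360 had an unadjusted p under 0.05. With the replicate number as a block, 8 genes were called for it, 1 higher and 7 lower. The fit of group means called few genes for either E2 effect, so 0 calls do not show that the effects were equal and opposite. For Rasd1 the detection limit allows only a bound, at least -0.64, which leaves its sign unsettled.

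**Figure D2:**
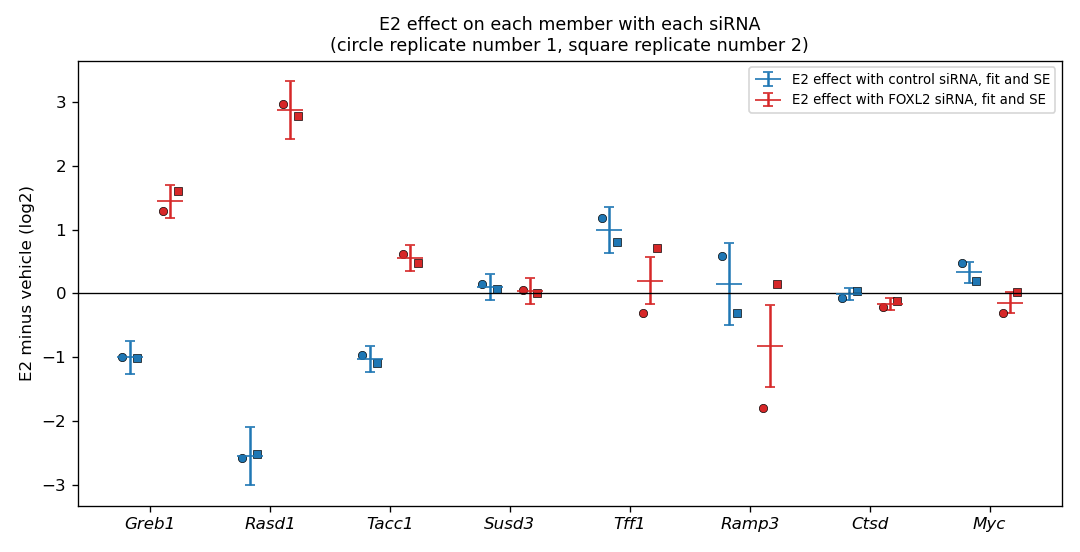
E2 minus vehicle on the log2 scale (vertical axis) for the 8 members tested, in blue with control siRNA and in red with FOXL2 siRNA. Small symbols are the values of replicate numbers 1 and 2, and large symbols with bars the limma estimates with their SE. Greb1, Rasd1 and Tacc1 lie below 0 with control siRNA (-1.00, -2.55 and -1.03) and above it with FOXL2 siRNA, with similar values in both replicate numbers. Rasd1 with FOXL2 siRNA is drawn from vehicle arrays below the detection limit.

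With vehicle, FOXL2 siRNA went with lower Greb1, Rasd1 and Tacc1 and with higher Susd3 and Tff1. All 5 were called, out of 8 members tested, where 6.57% of all genes were called. Taken by direction, 3 members fell and 2 rose, where 2.94% and 3.63% of all genes did. The arrays of the 2 siRNAs did not overlap for 7 of 8 members with vehicle and 5 of 8 with E2, where 46% and 48% of all genes did not overlap. By the size of at least 1 log2 unit and 2 times the sum of SDs, 5 members stood apart with vehicle and 1 with E2, beside 2.94% and 2.35% of all genes. This comparison shares its vehicle arrays with both E2 comparisons, so it is not independent of them. Nor were the members chosen without knowledge of earlier results, as stated above. Greb1 fell by 2.01 (SE 0.26, limma adjusted p = 0.00531), with -1.67 and -2.34 for the replicate numbers. Rasd1 fell at least 10.3-fold, to below the detection limit (adjusted p = 0.00258), and by 1.38 on the log2 scale with normexp, where it was called too. Tacc1 fell by 1.76 (SE 0.20, adjusted p = 0.00360). These 3 calls were kept in each of 8 fits that left out an array. In order of level, all 3 genes were highest with control siRNA and vehicle and lowest with FOXL2 siRNA and vehicle. The groups in between, control siRNA with E2 and FOXL2 siRNA with E2, differed by 0.44 for Greb1 (adjusted p = 0.465), 1.10 for Rasd1 (adjusted p = 0.281) and -0.19 for Tacc1 (adjusted p = 0.735), none of them called.

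Because the direction within control siRNA rests on the labels alone, both FOXL2 siRNA groups were also set against the other control group, after the data had been seen. Against control siRNA with E2, the arrays with FOXL2 siRNA and vehicle were lower by 1.01 for Greb1 (limma adjusted p = 0.0740), at least 1.75-fold for Rasd1, which they did not detect (adjusted p = 0.0746), and by 0.74 for Tacc1 (adjusted p = 0.0944), none of them called, and 1 of 8 members (Susd3) was called, where 4.67% of all genes were. Against control siRNA with vehicle, the arrays with FOXL2 siRNA and E2 were lower by 0.56 for Greb1 (adjusted p = 0.309), by 1.45 for Rasd1 (adjusted p = 0.138) and by 1.21 for Tacc1 (adjusted p = 0.0188), and 3 of 8 members (Tacc1, Susd3 and Tff1) were called, where 4.89% of all genes were.

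Susd3 was the member with the most even difference between siRNAs. In control siRNA cells it had 116 and 97.8 under vehicle and 128 and 103 under E2, and in FOXL2 siRNA cells 300.1 and 237 under vehicle and 311 and 239 under E2. All 4 arrays with FOXL2 siRNA were higher than all 4 with control siRNA. It rose by 1.32 with vehicle (SE 0.20, limma adjusted p = 0.0100) and by 1.25 with E2 (SE 0.20, adjusted p = 0.0163), and was the 1 member of 8 called with E2, where 4.39% of all genes were called, with 2.25% higher. Set against the other control group, the values were 1.22 and 1.35 (adjusted p = 0.0173 and 0.0125), so its call did not depend on which control group was used. Its E2 effect was 0.11 (95% interval -0.37 to 0.58) with control siRNA and 0.03 (-0.44 to 0.50) with FOXL2 siRNA. The call with vehicle was lost without replicate 1 of FOXL2 siRNA with vehicle (adjusted p = 0.0635) or replicate 2 of control siRNA with vehicle (0.0657). That with E2 was lost without either control array with E2 (0.0716 and 0.118) or replicate 1 of FOXL2 siRNA with E2 (0.0765). Its probes were not alike. A_55_P1985453 rose by 1.54 with vehicle and 1.46 with E2, tested alone over all probes (adjusted p = 0.0163 and 0.0269). A_55_P1985458 gave 0.52 and 0.40, not called (adjusted p = 0.211 and 0.402), and A_55_P2133726 was well above background on 1 of 8 arrays and was not tested. The 2 probes of Greb1, A_55_P2114776 and A_55_P2114779, gave like values, while Rasd1, Tacc1 and Myc have 1 probe each.

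Tff1 lay close to the detection limit. Its signals were 5.9 and 8.4 with control siRNA and vehicle, well above background on 0 of 2 arrays, and 13.4 and 14.8 with control siRNA and E2, on 1 of 2. With FOXL2 siRNA it had 27.4 and 18.5 with vehicle and 22.2 and 30.3 with E2, on 2 of 2 arrays each. The control vehicle arrays were the lowest and did not overlap any other group. With control siRNA the E2 difference was not called (limma adjusted p = 0.981), and no fold is given, since 1 of the 4 arrays detected the gene. With FOXL2 siRNA it differed by 0.20, with opposite signs in the replicate numbers (-0.31 and 0.71). With vehicle it rose at least 1.76-fold with FOXL2 siRNA (adjusted p = 0.0366). That call was lost in each of 8 fits that left out an array, with the filter on low signals removed (adjusted p = 0.0657), with the brightest probe alone (0.131), with another background correction, normexp (0.123), and in a fit of the compared groups alone (0.117). With E2 it gave 0.88 with FOXL2 siRNA (adjusted p = 0.281).

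**Figure D3:**
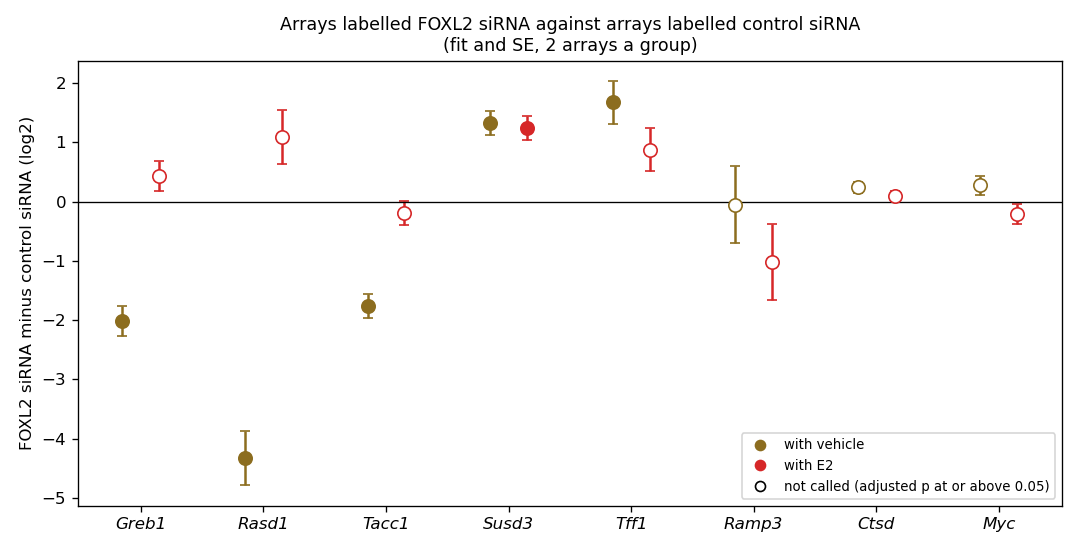
FOXL2 siRNA minus control siRNA on the log2 scale (vertical axis) for the 8 members tested, with vehicle and with E2. Symbols with bars are the limma estimates with their SE, and filled symbols passed the adjusted threshold. With vehicle 5 members passed it, 3 lower and 2 higher. With E2 Susd3 alone did, at 1.25.

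The remaining members gave no call in any of these comparisons. Ctsd had 24001 and 24399 under vehicle and 22922 and 25172 under E2 in control siRNA cells, and 27704 and 29508 under vehicle and 23900 and 27303 under E2 in FOXL2 siRNA cells. Both arrays with FOXL2 siRNA and vehicle were above all others, and the remaining groups overlapped. Its E2 effect was -0.01 with control siRNA (95% interval -0.23 to 0.21) and -0.16 with FOXL2 siRNA (-0.38 to 0.06), the narrowest intervals of the group. Its probes had opposite signs for E2, however. A_51_P384629 gave -0.05 and -0.21, and A_65_P13209 gave 0.32 and 0.25, above the upper ends of both intervals, with neither called. Myc had 1123 and 1495 under vehicle and 1564 and 1704 under E2 in control siRNA cells. In FOXL2 siRNA cells it had 1551 and 1586 under vehicle and 1251 and 1603 under E2, where the groups overlapped. Its E2 effect was 0.33 (-0.05 to 0.71) and -0.15 (-0.53 to 0.23), so a rise of up to 0.71 with control siRNA lay within the interval. Ramp3 was well above background on 4 of 8 arrays, 1 in each group, all of them replicate 2. Its signals ran from 3.8 to 19.2, its intervals were wide (-1.35 to 1.64 for the E2 effect with control siRNA), and its direction turned when single arrays were left out. Pgr was well above background on 0 of 8 arrays with any of its 3 probes. Its signals ran from 3.2 to 7.6 with a median of 4.10, below the limit of 10 for the test, so a change of Pgr was not detectable here.

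The same comparisons were read for the receptors and for other genes known to respond to estrogen. None of the 9 receptors and coregulators tested was called for E2 with either siRNA (medians -0.05 and -0.09). Esr1 gave 0.23 with control siRNA and 0.02 with FOXL2 siRNA. Gper1, a membrane receptor for E2, was well above background on 1 of 8 arrays, so no change is given for it. Nrip1, a corepressor of nuclear receptors, fell by 0.91 with FOXL2 siRNA and vehicle (limma adjusted p = 0.0111). It was the 1 call among the 9 for the siRNA, with 0 with E2, where 6.57% and 4.39% of all genes were called. Of 29 other estrogen response genes, 23 were tested, and again 0 were called for E2 (medians -0.02 and 0.02). Tgfa, a ligand of the EGF receptor, had the largest E2 values of that list in both siRNAs, -0.68 and 0.57, which differed by 1.25 (adjusted p = 0.394). Bcl2, which protects from apoptosis, gave -0.47 and 0.02. FOXL2 siRNA called the same 2 of these 23 genes with both treatments, where 6.57% of all genes were called with vehicle and 4.39% with E2, a share near that background. Stc2, a secreted glycoprotein, rose by 0.95 with vehicle and 0.89 with E2 (adjusted p = 0.00696 and 0.0115). Fos, a subunit of AP-1, fell by 1.78 with vehicle and by 1.03 with E2 (adjusted p = 0.00310 and 0.0294).

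**Figure D4:**
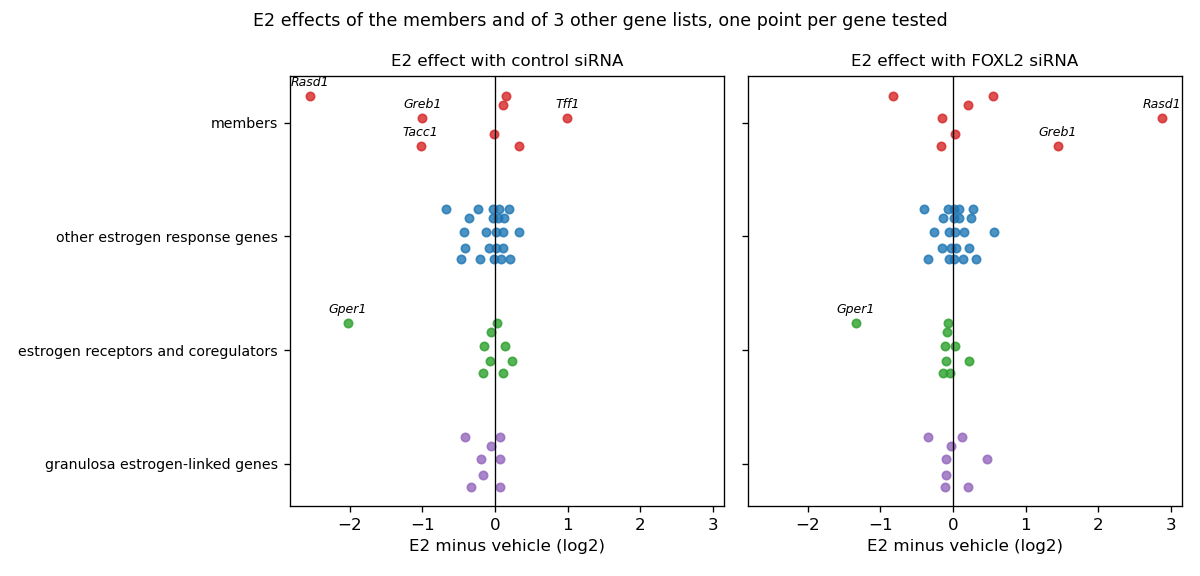
E2 minus vehicle on the log2 scale (horizontal axis) for the 8 members and for the genes of 3 other lists, set out by list on the vertical axis. Panels show control siRNA and FOXL2 siRNA, with 1 point per gene and names at 0.9 or more from 0. None of the points of the 4 lists passed the adjusted threshold in the fit of group means. Gper1 was well above background on 1 of 8 arrays.

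Genes tied to estrogen in granulosa cells were taken as a list of 10, of which 8 were tested and Lhcgr and Fshr, the gonadotropin receptors, were well above background on 0 arrays. None was called for E2 with either siRNA (medians -0.12 and -0.06). Nppc, which encodes C-type natriuretic peptide, had the largest E2 values, -0.41 and 0.47. With FOXL2 siRNA and vehicle 2 were called higher and 2 lower, where 3.63% and 2.94% of all genes were. Cyp11a1, the first enzyme of steroid synthesis, rose by 0.85 with vehicle and by 0.93 with E2 (limma adjusted p = 0.00209 and 0.00192). Fst, the activin antagonist follistatin, fell by 2.00 and by 2.04 (adjusted p = 0.00207 and 0.00242). Ccnd2, a cyclin of granulosa cell growth, rose by 0.97 and Npr2, the receptor of C-type natriuretic peptide, fell by 0.50 with vehicle (adjusted p = 0.0211 and 0.0151). With E2 the calls were 1 higher and 1 lower, where 4.39% of all genes were called. Cyp19a1, the aromatase that makes E2, gave 0.07 and -0.35 for E2 and was not called in any comparison. It was well above background on 6 of 8 arrays. The study, by contrast, reports from its arrays that Cyp19a1 needs FOXL2 for its expression, with and without hormones.

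Markers of other cells were read beside the siRNA effects, since in these mixed cultures fewer cells of a type and less RNA per cell cannot be told apart. Of 5 Sertoli cell markers all were detected, and 3 were called higher with FOXL2 siRNA with either treatment, Sox9 by 2.66 and 1.44, Sox8 by 2.22 and 1.21 and Dhh by 1.34 and 0.74. Over all genes, 3.63% were called higher with vehicle and 2.25% with E2. The summed scaled signal of the 5 Sertoli markers was 2380 to 3309 on the 4 control arrays and 4529 to 6438 on the 4 FOXL2 siRNA arrays. Of 6 theca and interstitial markers 4 had higher and 2 lower values with FOXL2 siRNA and vehicle (median 0.09), and Hsd3b1 was the 1 call among them (-0.83 with vehicle, limma adjusted p = 0.0235). Their sum was 113878 to 133339 with control siRNA and 74234 to 90926 with FOXL2 siRNA, but most of it was Hsd3b1, and without that gene the sums overlapped, at 8269 to 16299 and 10389 to 17032. The granulosa markers summed to 52194 to 64965 and 58149 to 62975, and Hsd17b1 was their 1 call, at -1.48 with vehicle and -1.47 with E2. In either direction, 6.57% of all genes were called with vehicle and 4.39% with E2. Of the oocyte markers 2 of 8 were kept for the test and Zp1, Zp2, Zp3 and Bmp15 were well above background on 0 arrays, with sums of 118 to 163 and 139 to 190. Macrophage markers (4 of 6 kept, Ptprc on 0 arrays) summed to 1754 to 2035 and 1586 to 2102, and endothelial markers (2 of 5 kept, Cdh5 on 0 arrays) to 1102 to 1815 and 1592 to 1954, and no gene of these 3 lists was called. No marker of the 6 lists was called for E2 with either siRNA. The part of these cells in the siRNA effects on the members was not tested.

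Across the 8 arrays, Greb1, Rasd1 and Tacc1 went together. Pearson's r of their log2 signals was 0.988 for Greb1 and Rasd1, 0.898 for Rasd1 and Tacc1 and 0.880 for Greb1 and Tacc1. Tff1 followed Susd3 (0.815) and ran against Tacc1 (-0.820), and Ctsd ran against Greb1 (-0.788). These values are descriptions over 8 arrays that share 4 conditions and 1 slide. Ramp3, Tff1 and Rasd1 were well above background on 4, 5 and 6 of the 8 arrays. Their correlations, here and below, thus include signals that were not detected. Among 14724 genes well above background on at least 6 arrays, the closest to Greb1 were Rasd1 (0.988), E2f6 (0.984) and Efr3b (0.978). Those closest to Rasd1 were E2f6 (0.992), Greb1 (0.988) and Fam163a (0.987), and to Tacc1 Nectin3 (0.983), Rnf19b (0.974) and Olfm1 (0.972). Susd3 was most like Robo4 (0.996), Cdh3 (0.991) and Ankrd34a (0.990). The closest genes to Tff1 were Serinc3 (0.979), Cetn2 (0.972) and Xpo1 (0.969), and to Ctsd Sin3b (0.988), Tmem37 (0.976) and Supt5 (0.967). Sms (0.993), Zfp120 (0.978) and Nckipsd (0.961) were most like Myc, and Dusp9 (0.962), Spata5 (0.945) and Txnrd3 (0.937) most like Ramp3.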

How the data were processed

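Total RNA (50 ng per sample) was labelled with Cy3 and hybridised to 8 one-colour Agilent arrays on 1 slide. Per the file headers, the deposited spot values are Feature Extraction intensity values, background-subtracted by the authors' software. The authors' deposited table is on the log2 scale, and equalled the log2 mean processed intensity of a row minus an array offset within 0.001 at 98.6 to 98.9% of rows. According to the methods it was made in Genespring with 75th percentile scaling. Their median subtraction per replicate, not fully stated, was left out here.

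Of 62976 spots, 3671 were controls, and 39 non-uniform probes were left out, leaving 55642. Intensities were scaled to the 75th percentile (275 to 367 units), probes of an Entrez gene averaged on the linear scale, and 15638 of 24235 genes with a median of at least 10 kept. RefSeq named 22352. The share of probes well above background ran from 51.4 to 55.7%, and 0 were saturated. Arrays carry no read depth, and 2 per group limit precision. Group means were fitted over all 8 arrays with limma 3.58.1 in R 4.3.3 (4 residual and 3.71 prior degrees of freedom, intensity trend, two-sided, Benjamini-Hochberg at 0.05). The fit was tried on simulated arrays with independent errors, which lack the correlation between arrays of the same replicate number seen here. The labels give independent biological duplicates. Alternatives were other backgrounds, scalings, filters, probes, the authors' values, a replicate block and leaving out each array. Figures and tables came from Python 3.11.15 (pandas 2.3.3, numpy 2.4.6, matplotlib 3.10.9).

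The members and gene lists were chosen with earlier results of these data known. The genes named are the members, the 3 genes most like each, and called or extreme genes of the lists.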

Additional observations from a re-analysis of the deposited data

Results flagged for a closer look

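The E2 effect on Rasd1 differed between the siRNAs by 5.43 on the log2 scale in the limma fit (adjusted p = 0.0333), with -2.55 on the arrays labelled control siRNA and a higher level with E2 on both replicate numbers of those labelled FOXL2 siRNA. Rasd1 was not well above background on either array with FOXL2 siRNA and vehicle (10.0 and 5.1), and with these held at the detection limit the difference was at least 4.46. Rasd1 has 1 probe. Its call was lost with normexp, without the filter on low signals, without the intensity trend and in most fits that left out an array. The direction within control siRNA rests on the labels, and the sum of both effects was at least -0.64.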

How the results depend on the processing

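The values with 2 arrays per group depended most on how replicate numbers were treated. Deviations of arrays with the same number correlated at 0.33 to 0.44 in the pairs of groups, over 15638 genes, but the labels do not say that a number marks a shared pool. With a replicate block in the limma fit, 3 members were called for E2 with control siRNA (Greb1, Rasd1 and Tacc1, adjusted p = 0.00417, 0.000849 and 0.0121), 2 for E2 with FOXL2 siRNA (Greb1 and Rasd1, both 0.000404), 3 for the difference between siRNAs (Greb1 3.25e-05, Rasd1 1.73e-05 and Tacc1 0.00377) and 2 for FOXL2 siRNA with E2 (Rasd1 0.0157 and Susd3). Over all genes the block called 182, 96 and 332 for the 2 E2 effects and their difference, and 2932 and 2331 for the siRNA with vehicle and with E2.

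The planned normexp correction on mean signals was not run, since these files hold median signals, and the version on median signals was added after the data were seen. It called 7 genes for E2 with control siRNA, and for the difference it called Greb1 (adjusted p = 0.0487) and lost Rasd1, whose log2 difference went from 5.43 to 1.77 (adjusted p = 0.0649). Without the filter, 1, 0 and 9 genes were called for the 2 E2 effects and the difference, and 0 members for the difference. Without the intensity trend these were 1, 1, 15 and 0, with 633 and 379 genes for the siRNA. The brightest probe called 1 gene for E2 with FOXL2 siRNA. A fit of only the compared groups called 0 there and 585 for the siRNA with vehicle, and could not be run for the difference, which needs all 4 groups. Under the study's rule, centring within replicate numbers put 2 members (Greb1 and Rasd1) past it with either siRNA. Tacc1 was then no longer past it with control siRNA. The cause of these changes was not tested.

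Leaving out each array in turn gave 0 to 5, 0 to 4 and 4 to 10 genes for the 2 E2 effects and the difference, and 309 to 918 and 131 to 629 for the siRNA with vehicle and with E2, fewer arrays giving fewer degrees of freedom. Members called numbered 0 to 1 for the difference (Greb1 without replicate 1 of FOXL2 siRNA with vehicle), 3 to 4 for the siRNA with vehicle and 0 to 1 with E2.

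Signs turned only for values that were not called. With normexp, Ramp3 gave -0.11 for E2 with control siRNA and 0.033 for the siRNA with vehicle, Tff1 -0.078 for E2 with FOXL2 siRNA, and Susd3 0.018 for the difference. Quantile scaling gave 0.027 for Ctsd (E2 with control siRNA) and 0.040 for Ramp3 (siRNA with vehicle), and the brightest probe 0.18 for the latter. Over single arrays left out, E2 with control siRNA ran from -0.053 to 0.27 for Susd3, -0.31 to 0.59 for Ramp3 and -0.078 to 0.057 for Ctsd. E2 with FOXL2 siRNA ran from -0.083 to 0.48 for Tff1, -0.16 to 0.22 for Susd3, -1.83 to 0.18 for Ramp3 and -0.33 to 0.032 for Myc. The difference ran from -0.27 to 0.12 for Susd3 and -1.98 to 0.036 for Ramp3, and the siRNA effect from -0.50 to 0.40 for Ramp3 with vehicle and from -0.45 to 0.078 for Tacc1 and -0.0072 to 0.18 for Ctsd with E2.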
